A study of Mus musculus with 6 samples.

Results

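The genes described here carry peptides from the cytosol to the cell surface on MHC class I, and they take up 10 of the 23282 lines listed for each library. Of the symbols listed, 35 occur more than once, on 79 lines. The members were taken by symbol. These comprise the classical heavy chains H2-K1 and H2-D1, the light chain B2m, the peptide transporter Tap1 and Tap2, the loading factor Tapbp, the immunoproteasome subunits Psmb8, Psmb9 and Psmb10, and the transactivator Nlrc5. All 10 were found in the 6 libraries, and all 10 passed the filter on low values, a mean log2 value of at least 1.

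RNA came from CD4 T cells of C57BL/6 mice, isolated from spleen and lymph nodes. The WT group was Prkaa1 fl/fl without Cre (CD4Cre-neg), and the AMPK KO group was Prkaa1 fl/fl with CD4Cre, with 3 samples in each group. Both groups thus carried the floxed allele of Prkaa1, the gene of the AMPK catalytic subunit alpha 1, and CD4Cre deletes it in every cell with CD4 promoter activity, which in mice includes the CD8 lineage. Mice were female and 6 to 8 weeks old according to the methods. Cells were rested for 1 h and then stimulated with anti-CD3 and anti-CD28 (2 µg/mL), for 24 h in the labels and for 6 h in the methods. The labels do not say which animal gave which library, so the p-values measure the spread between these samples.

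The libraries held 9575122 to 10168038 reads on genes for WT and 10515321 to 11185353 for AMPK KO. The ribosomal precursor Rn45s took 20.7 to 24.9% of them for WT and 8.48 to 10.8% for AMPK KO. The targeted gene Prkaa1 had log2 values of 4.64, 5.24 and 4.86 in WT and of 4.08, 4.72 and 4.67 in AMPK KO, so the groups overlapped (log2 fold change -0.43, adjusted p = 0.357 in limma). Its transcript level in these 3′ libraries therefore did not separate the labelled groups. Xist, transcribed from the inactive X chromosome, was at 0.93 to 2.16 in WT and at 7.55 to 7.92 in AMPK KO. The Y-linked Ddx3y was at 8.44 to 8.53 in WT and at 6.93 to 7.28 in AMPK KO, although the methods describe female mice. Every comparison below therefore sets groups side by side that also differ in sex-linked transcripts, and genotype and this difference cannot be told apart. Cd4 itself was present in every library, at 6.53 to 6.83 in WT and 6.14 to 6.55 in AMPK KO. The CD8 T cell markers were present too, Cd8a at 6.48 to 6.86 in WT and 6.95 to 7.08 in AMPK KO. Cd8b1, at 7.17 to 7.61 in WT and 7.59 to 7.98 in AMPK KO, was above Cd4 in every library.

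MHC class I is made of a heavy chain, the light chain beta-2 microglobulin and a short peptide, and almost every nucleated cell shows it to CD8 T cells and NK cells. The peptides are cut by the proteasome, pumped into the endoplasmic reticulum by the TAP transporter and fitted into the groove with the help of tapasin. In lymphocytes and in cells exposed to interferon-gamma, inducible catalytic subunits replace the constitutive ones and form the immunoproteasome. Interferon-gamma induces genes such as Irf1 and Nlrc5, whose products act on the promoters of these genes.

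Most of the genes lie close together in the MHC on chromosome 17. In the GENCODE annotation of GRCm38, Tapbp lies at chr17:33915899-33929292, H2-K1 at chr17:33996017-34000347, Psmb9 at chr17:34181987-34187764, Tap1 at chr17:34187553-34197225, Psmb8 at chr17:34197721-34201454, Tap2 at chr17:34203527-34216321 and H2-D1 at chr17:35262730-35267499. The other three lie outside it, B2m at chr2:122147686-122153083, Nlrc5 at chr8:94434356-94527272 and Psmb10 at chr8:105935735-105938444. H2-K1, Psmb9 and Psmb10 are on the minus strand and the other members are on the plus strand. Psmb9 and Tap1 are read in opposite directions and their first exons overlap in some transcripts, whereas QuantSeq reads come from 3′ ends.

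RefSeq promoters (GRCm38.p6, 250 bases before to 50 after the start) were matched for 8 of the 10 genes, all but Tap2 and Nlrc5, and were searched on both strands for the letters of 4 elements that are known from class I genes. The stretches below are shown because they hold the matches and because the neighbours Psmb9 and Tap1 share theirs. Capitals mark the matches. The kappaB-like element (GGGANNNCCC) was found in 2 members, and in each of them overlapping matches on the opposite strands make up the longer run of capitals. The other capitals in the heavy-chain promoters are the Y box core (ATTGG), or CCAAT where it lies on the other strand.
H2-K1, chr17:34000334-34000478, minus strand: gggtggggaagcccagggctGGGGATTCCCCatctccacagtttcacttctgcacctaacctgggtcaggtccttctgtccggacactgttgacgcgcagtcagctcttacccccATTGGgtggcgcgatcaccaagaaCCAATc
H2-D1, chr17:35262903-35263046, plus strand: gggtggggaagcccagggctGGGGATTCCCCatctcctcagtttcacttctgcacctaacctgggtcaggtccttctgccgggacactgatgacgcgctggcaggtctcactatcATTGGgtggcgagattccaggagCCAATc

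These stretches of the heavy-chain genes were identical at 129 of 145 aligned positions (89.0%). The kappaB-like letters occurred in 5.56% of the 32817 mouse promoters of this length, and the Y box core in 37.4%. The Y box core was present in 6 of the 8 members' promoters, those of H2-K1, H2-D1, B2m, Tap1, Tapbp and Psmb9.
B2m, chr2:122147528-122147647, plus strand: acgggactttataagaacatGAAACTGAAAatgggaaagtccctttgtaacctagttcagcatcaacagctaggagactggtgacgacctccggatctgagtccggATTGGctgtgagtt
Psmb8, chr17:34198078-34198126, plus strand: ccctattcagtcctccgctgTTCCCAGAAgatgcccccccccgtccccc
The longer run of capitals in B2m is the core of the interferon response element (GAAANNGAAA), which no other searched member held and which occurred in 3.43% of all promoters. The capitals in Psmb8 are a gamma-activated site (TTCNNNGAA), which no other searched member held and which occurred in 8.29% of all promoters.

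The stretch between the starts of Psmb9 and Tap1 is 225 bases long and lies upstream of both, with Psmb9 leaving to the left and Tap1 to the right. Its single match is a Y box core next to the Psmb9 start.
Psmb9 and Tap1, chr17:34187331-34187555, plus strand: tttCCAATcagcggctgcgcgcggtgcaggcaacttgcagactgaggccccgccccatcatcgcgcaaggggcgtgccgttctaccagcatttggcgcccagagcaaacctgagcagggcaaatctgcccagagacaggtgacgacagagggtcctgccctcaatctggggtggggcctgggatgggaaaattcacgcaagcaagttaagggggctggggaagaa
A match describes letters only, and binding was not measured in these libraries. The search took fixed letters, so a promoter without a match can still hold a variant of an element.

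To see whether loss of AMPK goes with a different level of class I genes in stimulated CD4 T cells, the AMPK KO samples were compared with the WT samples. None of the 10 genes passed the threshold of an adjusted p of 0.05 (limma, two-sided, Benjamini-Hochberg over 11279 genes), against 5.65% of all genes tested. H2-K1, H2-D1, Psmb8 and Psmb9 had an unadjusted p under 0.05, as did 2405 of the 11279 genes tested. The same background applies to such counts given below for other lists. Limma voom on the recovered reads also called 0 of the 10. The heavy chains, B2m, Psmb8 and Psmb9 were each higher in all 3 AMPK KO samples than in any WT sample, which makes 5 of 10 genes, and 11.6% of all genes tested showed this order. No member was lower in all 3 AMPK KO samples, the order seen in 14.0% of all genes tested. The log2 fold changes ran from -0.28 for Tap1 to 1.09 for Tap2, with a median of 0.34 for the members and of 0.02 for all genes tested. Values are given below as the deposited log2 of the normalized value plus 1, and fold changes are differences of the group means on that scale.

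**Figure D1:**
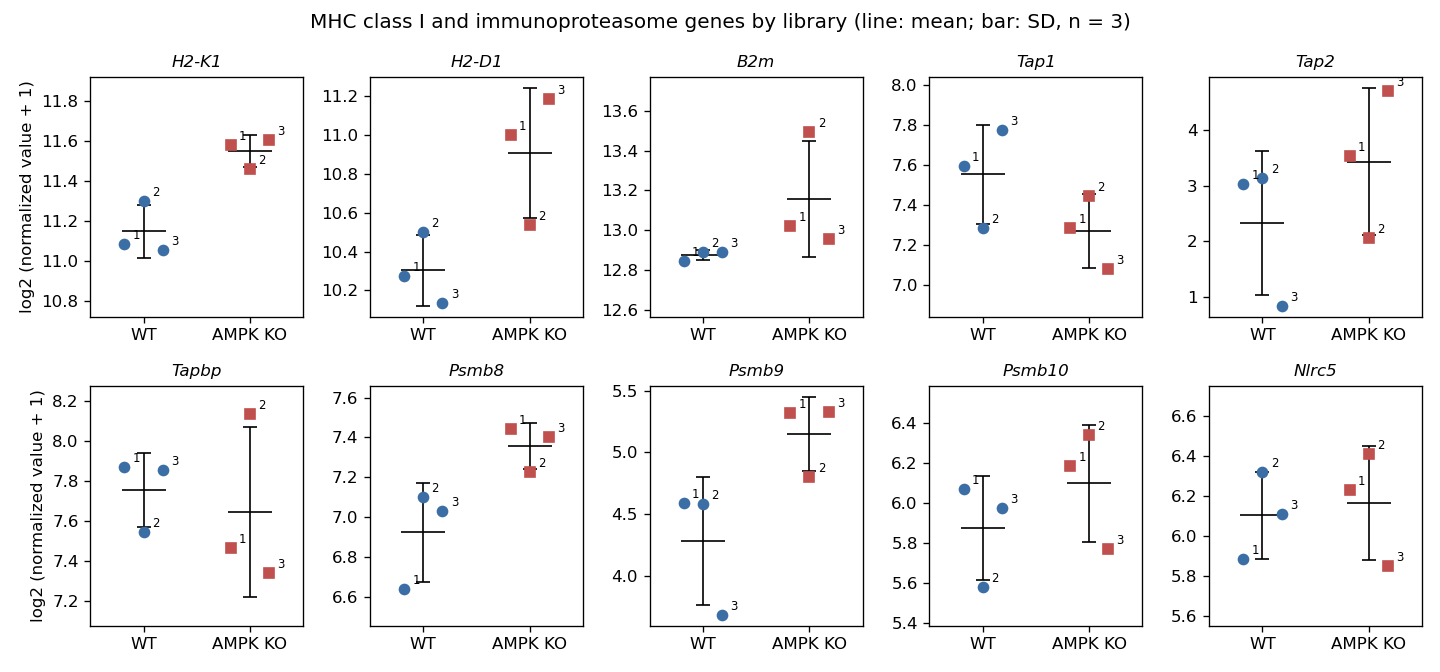
Log2 of the normalized value plus 1 of each of the 10 genes in every library, with WT as circles and AMPK KO as squares numbered by sample; lines are group means and bars are SD (n = 3). H2-K1, H2-D1, B2m, Psmb8 and Psmb9 show no overlap between the groups, and the remaining 5 genes overlap.

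H2-K1 encodes the classical heavy chain H-2K. WT samples 1 to 3 had log2 values of 11.08, 11.30 and 11.06, and AMPK KO samples 1 to 3 had 11.58, 11.46 and 11.61. All AMPK KO values lay above all WT values, and the nearest pair was sample 2 of each group. The means were 11.15 ± 0.13 in WT and 11.55 ± 0.08 in AMPK KO (SD, n = 3), a log2 fold change of 0.40 (standard error, SE, 0.15, adjusted p = 0.140 in limma). With quantile normalization the log2 fold change was 0.08. Between 18825 and 37084 reads per library lay behind these values.

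H2-D1 encodes the other classical heavy chain of this strain, H-2D. Its log2 values were 10.28, 10.50 and 10.14 in WT and 11.00, 10.54 and 11.18 in AMPK KO. AMPK KO sample 2 came close to WT sample 2, whereas AMPK KO samples 1 and 3 stood well above every WT sample. The means were 10.30 ± 0.18 and 10.91 ± 0.33 (SD, n = 3), and the log2 fold change of 0.60 (SE 0.18) had the smallest adjusted p of the 10 genes, 0.0601 in limma. Of the stretches of 50 bases in the last 300 bases of its transcript, 17.1% also occurred in other genes, so that part of its reads could be ambiguous. For H2-K1 this share was 0.797%, and for the other 8 members it was 0%.

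B2m encodes the light chain that every class I molecule needs at the surface. Its log2 values were 12.85, 12.89 and 12.89 in WT and 13.02, 13.49 and 12.96 in AMPK KO. The WT samples were nearly equal, and AMPK KO sample 2 was the high library here, while it was the low AMPK KO library for both heavy chains. The means were 12.88 ± 0.03 and 13.16 ± 0.29 (SD, n = 3), a log2 fold change of 0.28 (SE 0.20, adjusted p = 0.453 in limma) that became 0.11 without AMPK KO sample 2 and -0.13 with quantile normalization.

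Tap1 and Tap2 form the transporter that moves peptides into the endoplasmic reticulum. The log2 values of Tap1 were 7.60, 7.28 and 7.78 in WT and 7.28, 7.44 and 7.08 in AMPK KO, so the groups overlapped. The means were 7.55 ± 0.25 and 7.27 ± 0.18 (SD, n = 3), with a log2 fold change of -0.28 (SE 0.16, adjusted p = 0.340 in limma). Tap1 was below 0 in all 15 alternative settings, from -0.42 to -0.17 where single libraries were left out.

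Tap2 was the member with the fewest reads and the widest spread. Reads numbered 66, 78 and 7 for WT and 125, 34 and 298 for AMPK KO. In log2 values this was 3.03, 3.14 and 0.84 in WT and 3.53, 2.06 and 4.70 in AMPK KO. WT sample 3 and AMPK KO sample 3 were the lowest and the highest of all 6 libraries, and AMPK KO sample 2 was lower than WT samples 1 and 2. The log2 fold change was 1.09 (SE 0.64, adjusted p = 0.351 in limma), and it lay between 0.35 and 1.78 when single libraries were left out.

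Tapbp encodes tapasin, which holds empty class I molecules next to the transporter. Its log2 values were 7.87, 7.54 and 7.85 in WT and 7.46, 8.13 and 7.34 in AMPK KO. AMPK KO sample 2 was the highest of all libraries and AMPK KO sample 3 the lowest. The means of 7.75 ± 0.18 and 7.64 ± 0.43 (SD, n = 3) differed by -0.11 (SE 0.19, adjusted p = 0.790 in limma), by 0.04 without AMPK KO sample 3 and by -0.35 when AMPK KO sample 2 was left out. Exons of Tapbp overlap those of Zbtb22 on the same strand in the annotation, so reads there cannot be given to one of them with certainty.

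Psmb8, Psmb9 and Psmb10 encode the inducible catalytic subunits of the immunoproteasome, known as beta5i, beta1i and beta2i. The log2 values of Psmb8 were 6.64, 7.10 and 7.03 in WT and 7.44, 7.23 and 7.40 in AMPK KO. All AMPK KO samples were above all WT samples, with means of 6.93 ± 0.25 and 7.36 ± 0.12 (SD, n = 3). The log2 fold change was 0.43 (SE 0.16, adjusted p = 0.132 in limma), on 911 to 2048 reads per library.

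The log2 values of Psmb9 were 4.59, 4.58 and 3.69 in WT and 5.32, 4.80 and 5.33 in AMPK KO. WT sample 3 was clearly the lowest library, and AMPK KO sample 2 was the AMPK KO library closest to WT. The means were 4.29 ± 0.52 and 5.15 ± 0.30 (SD, n = 3), which gave a log2 fold change of 0.86 (SE 0.28, adjusted p = 0.0814 in limma). Leaving out WT sample 3 gave a log2 fold change of 0.56, and leaving out AMPK KO sample 2 gave 1.04. These values rest on 105 to 465 reads per library.

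Psmb10 did not share this separation. Its log2 values were 6.07, 5.58 and 5.97 in WT and 6.19, 6.34 and 5.77 in AMPK KO, with AMPK KO sample 3 below WT samples 1 and 3. The log2 fold change was 0.23 (SE 0.20, adjusted p = 0.554 in limma), and it was 0.08 when WT sample 2, 0.10 when AMPK KO sample 2 and 0.39 when AMPK KO sample 3 was left out.

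Nlrc5 encodes the NOD-like receptor that acts as the transactivator of class I genes. Its log2 values were 5.88, 6.32 and 6.11 in WT and 6.23, 6.41 and 5.85 in AMPK KO, and the groups overlapped over nearly their whole range. The means of 6.10 ± 0.22 and 6.16 ± 0.29 (SD, n = 3) differed by 0.06 (SE 0.19, adjusted p = 0.894 in limma), and the sign of this difference turned with scaling to reads outside Rn45s and when WT sample 1 or AMPK KO sample 2 was left out.

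The outcome of the test depended on AMPK KO sample 2. When this library was left out, 5 of the 10 genes rose past the threshold, against 5.90% of all genes tested that were called higher in the same fit. These were H2-K1 (adjusted p = 0.0149), H2-D1 (adjusted p = 0.000586), Psmb9 (adjusted p = 0.0225), Psmb8 (adjusted p = 0.0472) and Tap2 (adjusted p = 0.0498), all in limma. In this fit the log2 fold changes were 0.45 for H2-K1, 0.79 for H2-D1, 1.04 for Psmb9, 0.50 for Psmb8 and 1.78 for Tap2. These 5 are the members whose lowest AMPK KO value came from that library, so its removal had to raise their fold changes. H2-D1 also passed without WT sample 2 (adjusted p = 0.0494) and with a robust estimate of the spread (adjusted p = 0.0337), and no other alternative called a member. Leaving out AMPK KO sample 1, AMPK KO sample 3, WT sample 1 or WT sample 3 called 0 members each.

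**Figure D2:**
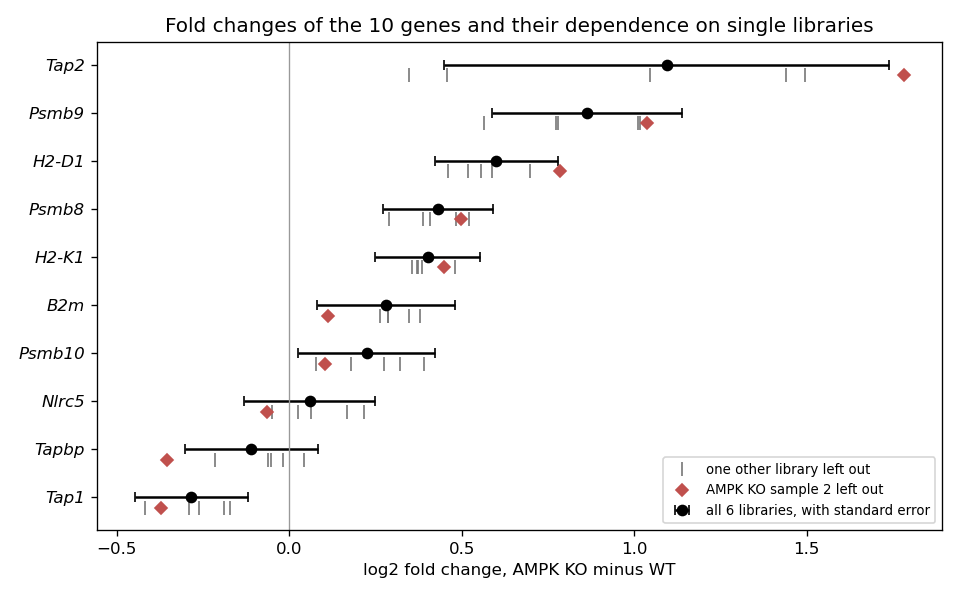
Log2 fold change (AMPK KO minus WT) of the 10 genes, with circles and bars for all 6 libraries and their standard error, ticks for each other library left out, and diamonds for AMPK KO sample 2 left out. The diamonds lie to the right of the circles for Tap2, Psmb9, H2-D1, Psmb8 and H2-K1 and to the left for the other 5 genes.

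Sample 2 of each group also stood apart in the order of the libraries. WT sample 2 was the highest WT library and AMPK KO sample 2 the lowest AMPK KO library for 4 of the 10 members, H2-K1, H2-D1, Tap2 and Psmb8, as for 19.9% of all genes tested. The opposite order was seen for Tap1, Tapbp and Psmb10, as for 19.2% of all genes tested.

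Each inducible subunit takes the place of a constitutive one. The log2 difference within a library compares the transcripts of the pair and is largely free of library scaling. Which subunit was built into proteasomes was not measured. Psmb8 minus Psmb5 was 1.05 ± 0.35 in WT and 1.34 ± 0.63 in AMPK KO (SD, n = 3; exact permutation p = 0.6). Psmb9 minus Psmb6 was -2.50 ± 0.64 in WT and -1.76 ± 0.74 in AMPK KO (SD, n = 3; exact permutation p = 0.3, adjusted p = 0.45 over the 3 pairs). Psmb10 minus Psmb7 was 0.08 ± 0.63 in WT and -0.35 ± 0.52 in AMPK KO (SD, n = 3; exact permutation p = 0.3, adjusted p = 0.45). The groups overlapped for all 3 pairs. With 3 samples against 3, the two-sided exact test cannot give a p below 0.1, so no pair could have passed.

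None of the 3 constitutive subunits passed in limma or with voom, and 1 had an unadjusted p under 0.05. Psmb5 and Psmb6 had log2 fold changes of 0.14 and 0.12. Psmb7 had 0.66 (adjusted p = 0.0778 in limma), with log2 values of 5.63, 6.22 and 5.52 in WT and 6.63, 6.13 and 6.60 in AMPK KO, and sample 2 of each group was again the exception to the separation. Leaving out AMPK KO sample 2 gave Psmb7 an adjusted p of 0.0126. AMPK KO sample 2 was the lowest of its group for both Psmb8 minus Psmb5 (0.62) and Psmb9 minus Psmb6 (-2.61). In this library Psmb5 and Psmb6 were at their highest, 6.60 and 7.41, and Psmb8 and Psmb9 were at the lowest values of the AMPK KO group.

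**Figure D3:**
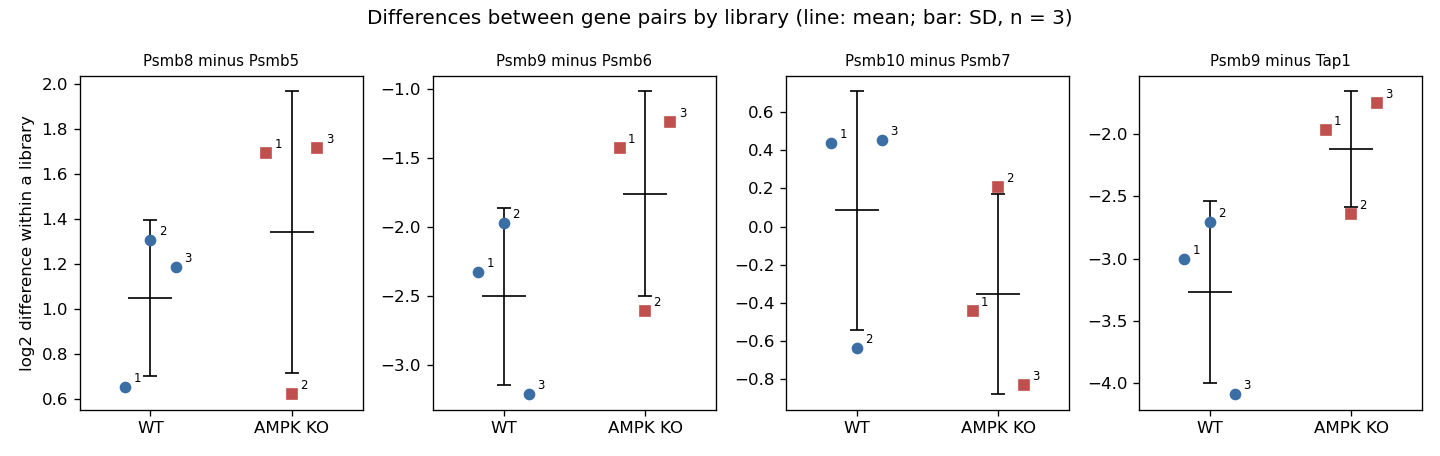
Log2 difference between the 2 genes of a pair within each library, WT as circles and AMPK KO as squares numbered by sample, with group means (lines) and SD (bars, n = 3). The inducible and constitutive pairs overlap between the groups, and Psmb9 minus Tap1, a pair chosen after its values were seen, does not.

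Psmb9 and Tap1, which share the promoter stretch printed above, had fold changes of opposite sign, neither of which passed the test. Psmb9 minus Tap1 was -3.01, -2.70 and -4.09 in WT and -1.97, -2.64 and -1.75 in AMPK KO. The highest WT value and the lowest AMPK KO value, both from sample 2, lay close to each other, but the groups did not overlap. The difference between the means was 1.15, and 0.73 to 1.43 with single libraries left out. This pair was picked for its opposite signs, so no test is given.

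The wider pathway was read from a list of 47 other class I genes, of which 43 were tested. In limma, 6 of the 43 rose and 1 fell, beside 2.54% of all genes tested that rose and 3.10% that fell. Without AMPK KO sample 2, 9 rose and 1 fell, beside 5.90% and 5.14% of all genes tested in that fit. Fold changes were above 0 for 23 and below 0 for 20 of them, with a median of 0.02, the same as for all genes tested.

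Of the 16 tested heavy chains outside the classical pair, 3 rose and none fell. H2-M2 had log2 values of 2.05, 2.26 and 1.30 in WT and 4.44, 4.36 and 3.72 in AMPK KO, on 13 to 245 reads, a log2 fold change of 2.30 (SE 0.37, adjusted p = 0.00262 in limma). It passed in all 15 alternative settings. H2-Q9, a heavy chain of the Qa-2 family, was at 9.08, 9.51 and 9.11 in WT and at 9.94, 9.60 and 10.06 in AMPK KO, with a log2 fold change of 0.63 (adjusted p = 0.0353 in limma). As for H2-D1, sample 2 of each group was nearest to the other group. It passed in 6 of 15 alternatives, and it was lost when sample 1 of WT (adjusted p = 0.203), sample 3 of WT (0.187), sample 1 of AMPK KO (0.157) or sample 3 of AMPK KO (0.0963) was left out. H2-Q10, which encodes a secreted class I molecule known from liver, had a log2 fold change of 1.31 (adjusted p = 0.0398 in limma, 22 to 121 reads), and passed in 5 of the 14 alternatives in which it was tested. Its adjusted p was 0.0636 to 0.141 when any single library but AMPK KO sample 2 was left out. Class I heavy chains are near-identical in places, so reads of one can be counted for another, and how the counting treated such reads is not given in the sources used here. H2-Q9 had no entry in the annotation used, so its sharing of sequence with other genes was not checked. H2-Q1, H2-Q2 and H2-Q6 had at most 9 reads in any library and were not tested, and H2-T3 was at 0 in every library.

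Of the 5 genes of peptide loading and trimming, 0 passed in limma and 0 with voom, and 1 had an unadjusted p under 0.05. Calr, the chaperone calreticulin, had a log2 fold change of 0.35 (adjusted p = 0.146 in limma) with no overlap between the groups, while Canx was at 0.02, Pdia3 at -0.09 and the trimming peptidase Erap1 at -0.03. Of the 4 genes of the proteasome activator and of assembly, 0 passed in limma and 0 with voom, and 2 had an unadjusted p under 0.05. Pomp, the chaperone that assembles the proteasome, was at 8.23, 8.22 and 7.93 in WT and at 8.44, 8.88 and 8.56 in AMPK KO (log2 fold change 0.50, adjusted p = 0.0678 in limma). Psme2, a subunit of the interferon-inducible activator PA28, was at 0.38 (adjusted p = 0.197 in limma), and its partner Psme1 at -0.13.

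**Figure D4:**
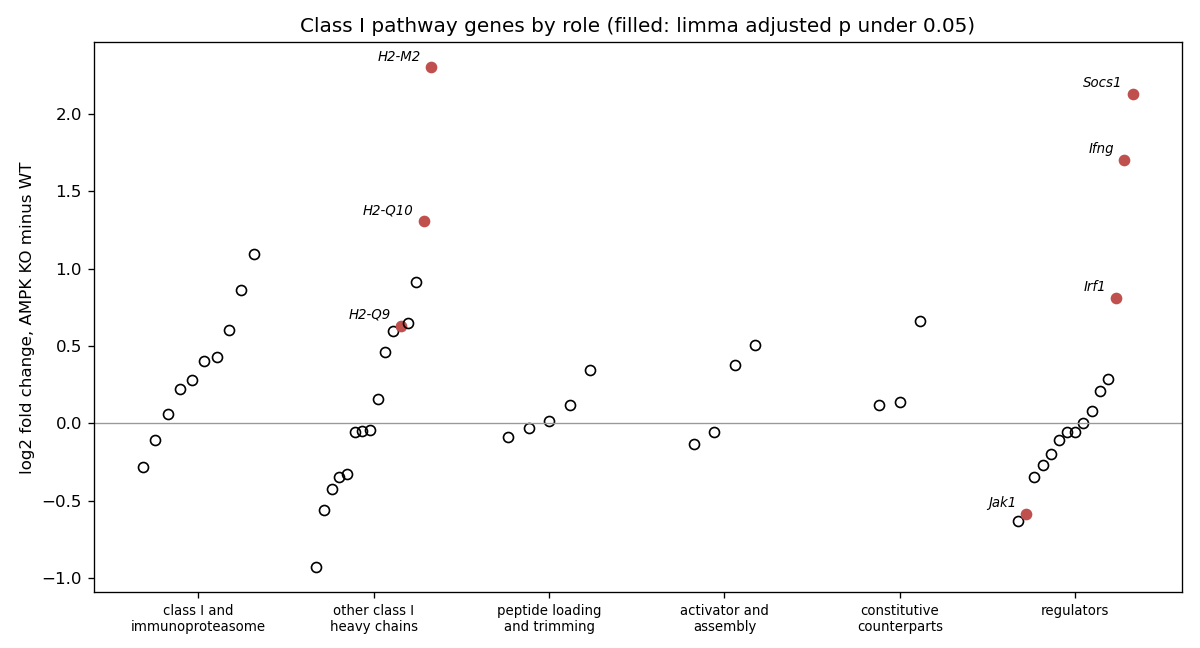
Log2 fold change (AMPK KO minus WT) of the 10 members and of the 43 other class I pathway genes tested, by role; filled points have a limma adjusted p under 0.05. Filled points occur among the other heavy chains (H2-M2, H2-Q9 and H2-Q10) and the regulators (Socs1, Ifng, Irf1 and Jak1), and none among the members.

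Among the 15 regulators, 3 rose and 1 fell. Ifng, the cytokine that induces the class I pathway, had log2 values of 2.13, 4.10 and 3.45 in WT and 4.91, 5.17 and 4.71 in AMPK KO, with a log2 fold change of 1.70 (SE 0.40, adjusted p = 0.0231 in limma). Irf1, a transcription factor that binds the interferon response element, was at 9.07, 9.16 and 9.06 in WT and at 9.77, 10.04 and 9.91 in AMPK KO. The groups were far apart against their spread, and the log2 fold change was 0.81 (SE 0.13, adjusted p = 0.00336 in limma). Irf1 passed in 13 of 15 alternatives, among them each library left out. Ifng passed in 9 of 15, and it was lost when sample 1 of WT (adjusted p = 0.0873), sample 3 of WT (0.0804) or sample 1 of AMPK KO (0.0938) was left out.

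Socs1, a feedback inhibitor of the JAK kinases, was at 3.19, 4.97 and 3.19 in WT and at 6.22, 4.78 and 6.74 in AMPK KO. It rose by the test (log2 fold change 2.13, adjusted p = 0.0196 in limma), although AMPK KO sample 2 was lower than WT sample 2, and it passed in 7 of 15 alternatives. Leaving out sample 1 of WT, sample 3 of WT or sample 1 of AMPK KO gave Socs1 an adjusted p of 0.146, 0.129 and 0.0986. Jak1, a kinase of the interferon receptors, fell from 11.03, 10.76 and 11.01 in WT to 10.25, 10.57 and 10.23 in AMPK KO (log2 fold change -0.59, adjusted p = 0.0383 in limma, 8 of 15 alternatives). Leaving out sample 1 or 3 of either group gave Jak1 an adjusted p of 0.116 to 0.197. The receptor chains Ifngr1 and Ifngr2 were at 0.08 and -0.63 (adjusted p = 0.127 in limma for Ifngr2).

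Other genes known to follow interferons did not share a direction. Of 10 type I interferon-stimulated genes, 1 rose, Isg15 (log2 fold change 0.88, adjusted p = 0.0275 in limma), 6 were below 0 and the median was -0.19. The call of Isg15 held in 8 of 15 alternatives, and leaving out sample 1 or 3 of either group gave an adjusted p of 0.0895 to 0.132. Of 9 GTPases induced by interferon-gamma, 0 passed in limma and 0 with voom, 1 had an unadjusted p under 0.05, and the median was 0.05.

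Markers of some other cells differed between the groups in the same libraries. Of 10 macrophage and monocyte markers, 6 rose and 10 were above 0, with a median log2 fold change of 1.12, and none of them was at 0 in any library. Their summed level, in normalized units, was 373, 333 and 340 in WT and 773, 1202 and 635 in AMPK KO. Leaving out sample 1 of WT ended the calls of Csf1r (adjusted p = 0.0808) and C1qb (0.0579), and leaving out sample 2 or 3 of WT or sample 1 of AMPK KO ended that of Csf1r (0.0507 to 0.0984). Over all 15 alternatives, Csf1r was called in 8 and the other 5 that rose in 13 or 14. Of 4 MHC class II genes, H2-Aa, H2-Eb1 and Cd74 rose. Leaving out any WT sample or sample 1 of AMPK KO ended the calls of H2-Eb1 (adjusted p = 0.0980 to 0.165) and Cd74 (0.0799 to 0.131), and leaving out sample 1 or 3 of WT ended that of H2-Aa (0.0686 and 0.0761). Over all 15 alternatives, H2-Aa was called in 12, Cd74 in 7 and H2-Eb1 in 5, and voom called 2 of the 4 class II genes. The class II sum was 2243, 2095 and 2037 in WT and 3360, 4678 and 3022 in AMPK KO. AMPK KO sample 2 was the highest library for both sums, as it was for B2m, Tapbp, Psmb10 and Nlrc5, whereas it was the lowest AMPK KO library for H2-K1, H2-D1, Tap2, Psmb8 and Psmb9. Single macrophage markers differed in this, since AMPK KO sample 2 was the lowest AMPK KO library for Itgam, Lyz2, Cd14 and Mrc1. Without this library, 8 of the 10 macrophage and monocyte markers and 4 of the 4 class II genes rose. CD4 T cells were purified with microbeads or a cell sorter according to the methods. The part of other cells in the class I values was not tested, and fewer cells of a type and less RNA per cell cannot be told apart in bulk samples.

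Of the 7 T cell markers, Cd3e, Cd3g and Cd28 fell and none rose. Leaving out sample 1 or 3 of either group ended the calls of Cd3e (adjusted p = 0.0692 to 0.122) and Cd28 (0.0626 to 0.245), and leaving out sample 1 of WT ended that of Cd3g (0.0590). Over all 15 alternatives, Cd3g was called in 12, Cd3e in 8 and Cd28 in 6, and voom called 2 of the 7 T cell markers. The T cell sum was 1684 to 1910 in WT and 1254 to 1590 in AMPK KO. The 2 CD8 T cell markers had log2 fold changes of 0.34 and 0.38 and did not pass, with sums of 231 to 305 in WT and 321 to 376 in AMPK KO. Of the 4 plasma cell markers, Jchain rose and the other 3 did not pass. The sum was 97.3 to 114 in WT and 418 to 462 in AMPK KO, of which the 3 markers other than Jchain made up 41.2 to 50.6 and 70.8 to 90.9. The sums of the B cell markers overlapped, at 215 to 232 and 191 to 247, and their transcription factor Pax5 was at 0 in 4 libraries. Sums of NK cell markers also overlapped, and Ncr1 was at 0 in 3 libraries. Dendritic cell markers summed to 35.6 to 40.9 in WT and 46.5 to 69.3 in AMPK KO with 0 of 6 called in limma or with voom and 0 at an unadjusted p under 0.05, and neutrophil markers summed to 761 to 862 in WT and 493 to 743 in AMPK KO. Of the 5 neutrophil markers tested, Ngp fell and the others did not pass, and Retnlg was higher in all 3 AMPK KO samples (log2 fold change 0.59, adjusted p = 0.277 in limma).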

How the data were processed

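QuantSeq 3′ libraries (Lexogen) were made from 500 ng of total RNA of 6 samples. The authors normalized reads by TMM and CPM, and the deposited values are log2 of the normalized value plus 1 per gene symbol. Submitters' processing notes name Bowtie2, bedtools and mm10, and the annotation and strand setting are not given in the sources used here. In each library, values up to 60 reads were all within 0.1 of whole multiples of 1 read, and reads were recovered on this basis. They are not independent molecules.

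The deposited log2 values were tested for the 11279 genes whose mean reached 1 with lmFit and eBayes (trend) of limma 3.58.1 in R 4.3.3, genotype only, two-sided, Benjamini-Hochberg adjusted, threshold 0.05. Pairs of genes were compared by an exact permutation test. Named genes were the members, a fixed pathway list of 47 genes, interferon lists and cell markers, and Psmb9 against Tap1 was chosen after its values were seen. A gene of the pathway list is not reported here by name. Members and lists were chosen with earlier results of these data known. The 15 alternatives were quantile normalization, scaling to reads outside Rn45s, no filter, a filter of at least 3, a pseudocount of 0.25, a replicate block, a robust spread, no trend, limma voom on recovered reads, and each library left out. Positions came from GENCODE M21 (GRCm38), and promoters from RefSeq. Computations used Python 3.11.15 with pandas 2.3.3, scipy 1.17.1 and matplotlib 3.10.9.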

Additional observations from a re-analysis of the deposited data

How the results depend on the processing

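The number of members past the threshold was 0 with all libraries. It was 0 to 5 with single libraries left out (1 without WT replicate 2, 5 without AMPK KO replicate 2), 1 with a robust spread and 0 in every other alternative. For the 47 other pathway genes it was 7, and it was 2 without a filter, 2 with no trend of the spread, 1 with the replicate block and 2 to 10 with single libraries left out. For all genes tested it was 637, and it was 308 without a filter, 73 with no trend, 102 with the replicate block and 127 to 1246 with single libraries left out, where WT replicate 1, WT replicate 3, AMPK KO replicate 1 (172) and AMPK KO replicate 2 moved it by over 1.5 times. The same-numbered libraries did not deviate together from their group means (correlations of -0.08, -0.32 and -0.16), so the numbers were not taken as pairs, and no sample correlated best with its own number. Why these counts moved was not tested. Of the 10 members, 7 kept the sign of the difference in every alternative in which they were tested, and B2m (1 alternative), Tapbp (1) and Nlrc5 (3) did not. None of the 7 called pathway genes changed sign. Single libraries left out gave 0.10 to 0.66 for Psmb8 minus Psmb5, 0.39 to 1.17 for Psmb9 minus Psmb6 and -0.80 to -0.20 for Psmb10 minus Psmb7. The filter of at least 3 left Tap2 without a value. Scaling moved the median of all genes by less than 0.1, to -0.01 with quantile normalization and -0.05 outside Rn45s. Depth limited Tap2, at 7 reads in WT sample 3, and the replicate differences were 9.50 to 23.7 times those of read counting.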

Other observations

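Some class I-like genes of the T region, which encode non-classical molecules, were highest in sample 2 among the WT libraries and lowest in sample 2 among the AMPK KO libraries. H2-T22 was at 5.26, 6.12 and 5.02 in WT and at 6.48, 5.19 and 6.53 in AMPK KO. H2-T9 had nearly the same values, 5.14, 6.10 and 4.97 in WT and 6.47, 5.16 and 6.53 in AMPK KO, and neither passed the test in limma with all libraries (adjusted p = 0.319 for H2-T22 and 0.295 for H2-T9). With AMPK KO sample 2 left out both passed, with log2 fold changes of 1.04 for H2-T22 (adjusted p = 0.0112) and 1.09 for H2-T9 (adjusted p = 0.00992). These genes were named because that library was the lowest of its group, so its removal had to raise their fold changes. H2-T10 was at 5.12, 6.30 and 5.38 in WT and at 6.09, 4.69 and 6.50 in AMPK KO, and did not pass with all libraries (log2 fold change 0.16, adjusted p = 0.856) or with AMPK KO sample 2 left out (0.69, adjusted p = 0.102). Of the stretches of 50 bases in the last 300 bases of H2-T10, 49.8% also occurred in H2-T22, so these values are not independent. H2-T9 had no entry in the annotation for this check. Its reads nearly equalled those of H2-T22, with 1085 for both in AMPK KO sample 3, so their calls cannot be read as independent. H2-T23, which encodes the ligand Qa-1, was low, at 13, 47 and 24 reads for WT and 18, 1 and 20 for AMPK KO, and its log2 fold change was -0.93 with all libraries (adjusted p = 0.303) and -0.51 without that library (adjusted p = 0.572). H2-T24 did not show this order, since WT sample 3, at 4.16, was above WT sample 2, at 3.73.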
